A study of Homo sapiens with 9 samples.

Results

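The genes described here are PNMAL1, CAMP, LGALS14, TSPAN11, NRN1 and CD3G, 6 of the 25370 gene symbols in the deposited count table, chosen by their measured log2 fold changes, as protein-coding genes with strong falls in earlier results of these same libraries. The choice named the 6 symbols and set no threshold. RNA was sequenced from OCI-Ly1, an established human cell line of diffuse large B-cell lymphoma, treated for 48 h with JIB-04 at 150 nM or 500 nM, or with DMSO as the control. JIB-04 is a small molecule that inhibits Jumonji-domain histone demethylases, the family of KDM4A and KDM4C, which the study's title names. Each group had 3 libraries of ribosomal RNA-depleted total RNA from this 1 line, and the labels name no genetic change in any group. Because the members were chosen for their fall between these groups, their changes are given as descriptions, without p-values.

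The 6 genes have no single pathway in common. PNMAL1, now named PNMA8A, belongs to the PNMA family, genes that descend from the Gag protein of ancient retrotransposons and include antigens of paraneoplastic neurological disease. CAMP encodes the cathelicidin precursor, an antimicrobial peptide of neutrophil granules, macrophages and epithelia that is a well-known target of the vitamin D receptor. LGALS14 encodes a galectin, a sugar-binding protein of a gene cluster expressed mainly in placenta. TSPAN11 is a tetraspanin, a membrane protein of the family that gathers receptors and adhesion molecules into membrane domains. NRN1 encodes neuritin, a protein tethered to the cell surface by a lipid anchor that promotes the growth of neuronal processes. CD3G encodes the gamma chain of CD3, the signalling part of the T-cell receptor, which normal B cells lack.

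Promoter sequences are shown because the members with the largest falls among the 6 at the higher dose have unlike start regions. They are the 250 bases before the gene's RefSeq start (GRCh38.p14), on the gene's strand, 5′ to 3′, with CG dinucleotides in capitals. The regions are chr19:46471564-46471813 on the minus strand for PNMAL1, chr3:48223245-48223494 on the plus strand for CAMP, chr19:39704231-39704480 on the plus strand for LGALS14 and chr12:30926498-30926747 on the plus strand for TSPAN11.
PNMAL1: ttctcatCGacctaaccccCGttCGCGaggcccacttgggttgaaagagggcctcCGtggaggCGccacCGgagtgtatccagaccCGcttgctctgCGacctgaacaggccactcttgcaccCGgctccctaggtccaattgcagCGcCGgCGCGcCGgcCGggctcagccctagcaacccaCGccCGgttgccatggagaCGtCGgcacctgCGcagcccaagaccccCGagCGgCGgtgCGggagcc
CAMP: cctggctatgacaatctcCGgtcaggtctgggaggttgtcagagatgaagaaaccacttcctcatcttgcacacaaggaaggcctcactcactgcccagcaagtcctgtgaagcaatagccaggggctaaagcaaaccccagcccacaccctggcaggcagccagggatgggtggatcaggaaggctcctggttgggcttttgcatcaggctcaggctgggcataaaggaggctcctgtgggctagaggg
LGALS14: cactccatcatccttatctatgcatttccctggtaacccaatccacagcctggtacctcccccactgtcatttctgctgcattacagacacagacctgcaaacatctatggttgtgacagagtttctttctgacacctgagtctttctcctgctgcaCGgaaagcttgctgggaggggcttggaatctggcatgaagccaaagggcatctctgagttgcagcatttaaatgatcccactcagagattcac
TSPAN11: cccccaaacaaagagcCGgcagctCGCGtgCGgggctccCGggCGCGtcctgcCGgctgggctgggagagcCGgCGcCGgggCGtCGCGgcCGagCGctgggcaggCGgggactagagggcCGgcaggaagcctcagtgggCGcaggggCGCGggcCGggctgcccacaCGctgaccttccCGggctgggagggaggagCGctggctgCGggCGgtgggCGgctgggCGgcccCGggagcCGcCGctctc

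The start regions of CAMP and LGALS14 each held 1 CG dinucleotide, fewer than most of the 35116 promoter entries, of which 6.06% held fewer. PNMAL1 held 25 and TSPAN11 held 32, against a median of 11 over all entries, so the 4 sequences shown include both CG-poor and CG-rich promoters. The GC content was 68.8% for PNMAL1, 57.6% for CAMP, 48.8% for LGALS14 and 80.0% for TSPAN11, against a median of 58.0%. The entry for NRN1 starts inside the gene, not at its RefSeq start, and is not shown; it held 19 CG dinucleotides. CD3G had no entry. The 7 motifs searched on both strands were the TATA box (TATAAA), the CCAAT box (CCAAT), the GC box (GGGCGG), the E-box (CACGTG), the cyclic AMP response element (TGACGTCA), the AP-1 site (TGAGTCA) and the C/EBP-ATF composite site (TTGCATCA), chosen after the sequences were seen. TSPAN11 had 3 GC boxes within 41 bases of its start, a motif that 42.6% of all entries hold. PNMAL1 and LGALS14 each had 1 CCAAT box, held by 32.0% of entries. CAMP had 1 C/EBP-ATF composite site, TTGCATCA, from 50 to 43 bases before the start, held by 0.772% of entries. None of the 7 motifs was shared by all 4 sequences shown, and matching letters are no evidence of binding.

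The table held 28476845 to 57198613 counts per library, and 15089 symbols, all 6 members among them, passed the filter on low counts. Levels are given in CPM, a gene's share of the library total on the usual CPM scale, with library totals adjusted by TMM scaling. In every library 2 counts occurred more often than 1 among the symbols, by 1.65 to 2.77 times; no source used here says whether both mates of a read pair were counted, in which case counting errors below are too small. All 8 B-cell markers examined were at 1 CPM or more in each group, with a summed level of 2113 to 2169 CPM in DMSO and 1742 to 1801 CPM at 500 nM. The 8 neutrophil granule markers were at 0 in all DMSO libraries. In bulk RNA, fewer cells of a type and less RNA per cell cannot be told apart. Nothing in the labels ties the libraries to separate cultures; errors and p-values cover the spread among these 9 libraries, and that spread may be technical only.

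In DMSO the 6 genes differed in level. Per kilobase of exon (GENCODE lengths) the order was CAMP at 16.8 ± 1.24 CPM per kb (SD, n = 3), LGALS14 at 5.70 ± 0.97, NRN1 at 4.69 ± 1.5, CD3G at 3.27 ± 0.40, TSPAN11 at 1.99 ± 0.32 and PNMAL1 at 1.38 ± 0.04. LGALS14 and NRN1, and NRN1 and CD3G, did not differ beyond their SDs, while CAMP stood above the other 5. CAMP ranked above 77.8% of tested genes by this level, and PNMAL1 above 30.4%. At 500 nM the order per kilobase was NRN1 (3.39 ± 0.50), CAMP (2.69 ± 0.26), CD3G (1.29 ± 0.09), LGALS14 (1.01 ± 0.21), TSPAN11 (0.525 ± 0.050) and PNMAL1 (0.150 ± 0.060). NRN1 had the highest mean, but the libraries of NRN1 and CAMP overlapped.

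**Figure D1:**
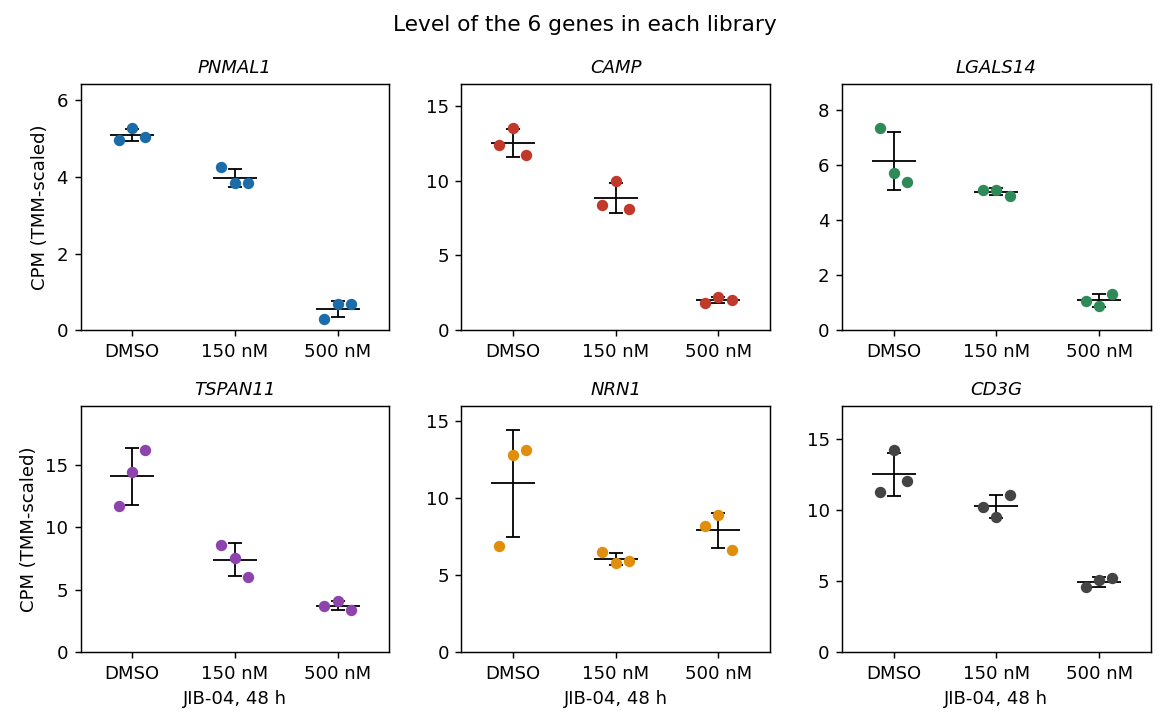
Level of each member in CPM (y axes from 0) in the 3 libraries of each group (points), with the group mean and SD (bars). PNMAL1, CAMP, LGALS14, TSPAN11 and CD3G step down from DMSO to 150 nM to 500 nM without overlap, and NRN1 is lowest at 150 nM.

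PNMAL1 had the largest fall of the 6 members at 500 nM, though not at 150 nM. Its level was 4.96, 5.28 and 5.06 CPM in the DMSO libraries, 4.26, 3.85 and 3.84 at 150 nM and 0.299, 0.688 and 0.672 at 500 nM. All 3 libraries of each dose lay below the group before it, with a small step at 150 nM and a steep one at 500 nM. The log2 fold change against DMSO was -0.35 ± 0.20 (SE) at 150 nM and -3.22 ± 0.24 at 500 nM, a 9.35-fold lower level. At 500 nM these values rested on 18 to 36 counts per library. Without 500 nM replicate 1, whose level was lowest, the change was -2.90.

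CAMP, the cathelicidin gene, was at 12.4, 13.5 and 11.7 CPM in DMSO. It was at 8.40, 10.0 and 8.10 CPM at 150 nM and at 1.81, 2.197 and 1.999 CPM at 500 nM. The 3 groups did not overlap, and the libraries within each lay close together. Its log2 fold change against DMSO was -0.50 ± 0.13 at 150 nM and -2.65 ± 0.14 at 500 nM, a 6.27-fold lower level.

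LGALS14, the placental galectin gene, was at 7.35, 5.72 and 5.38 CPM in DMSO, at 5.10, 5.10 and 4.89 CPM at 150 nM and at 1.08, 0.866 and 1.33 CPM at 500 nM. The groups did not overlap, but the lowest DMSO library was only just above the highest 150 nM library. The change against DMSO was -0.29 ± 0.17 at 150 nM, and -0.14 without DMSO replicate 1, whose level was highest. At 500 nM it was -2.49 ± 0.19, a 5.61-fold lower level. Reads of the related galectin genes of its cluster could be split or misassigned. LGALS13 and LGALS16 had 0 counts in all 9 libraries, and CLC had 4 in all.

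TSPAN11 was the member with the most even steps. It was at 11.7, 14.5 and 16.2 CPM in DMSO, at 8.63, 7.55 and 6.0 CPM at 150 nM and at 3.70, 4.11 and 3.40 CPM at 500 nM. Every library of a dose lay below the dose before. The log2 fold change was -0.93 ± 0.14 at 150 nM against DMSO and -0.99 ± 0.15 from 150 to 500 nM, together -1.92 ± 0.15 against DMSO, a 3.78-fold lower level. A non-coding RNA gene, TSPAN11-AS1, overlaps it in RefSeq, and without a stated strand setting its reads cannot be told apart from those of TSPAN11.

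CD3G was at 11.3, 14.2 and 12.1 CPM in DMSO, at 10.2, 9.49 and 11.1 CPM at 150 nM and at 4.56, 5.10 and 5.21 CPM at 500 nM. The DMSO and 150 nM libraries almost touched, at 11.3 and 11.1 CPM, and the 500 nM libraries were well below both. Its log2 fold change against DMSO was -0.28 ± 0.12 at 150 nM, or -0.19 without DMSO replicate 2, and -1.33 ± 0.13 at 500 nM, a 2.52-fold lower level.

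NRN1 was the member whose course was not monotonic. Its level was 6.91, 12.8 and 13.1 CPM in DMSO, 6.50, 5.76 and 5.91 at 150 nM and 8.18, 8.88 and 6.61 at 500 nM. The 150 nM libraries were the lowest of the 9, but DMSO replicate 1 lay apart from the other DMSO libraries, at the level of the treated ones. The 150 nM and 500 nM libraries almost touched, at 6.50 and 6.61 CPM. The log2 fold change against DMSO was -0.84 ± 0.19 at 150 nM and -0.46 ± 0.18 at 500 nM, and the change from 150 to 500 nM was 0.38 ± 0.19. At 500 nM 1 of 3 libraries was below the lowest DMSO library, so the groups overlapped. The change at 500 nM was -0.72 without DMSO replicate 1 and -0.30 without DMSO replicate 3, so its size depended on single control libraries, while the rise from 150 to 500 nM was 0.29 to 0.49 over all fits that left out 1 library. The members were picked for low values in these groups, so some rise from the lowest group of NRN1 can follow from the choice. These fits reuse the same values, and the rise was not tested.

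**Figure D2:**
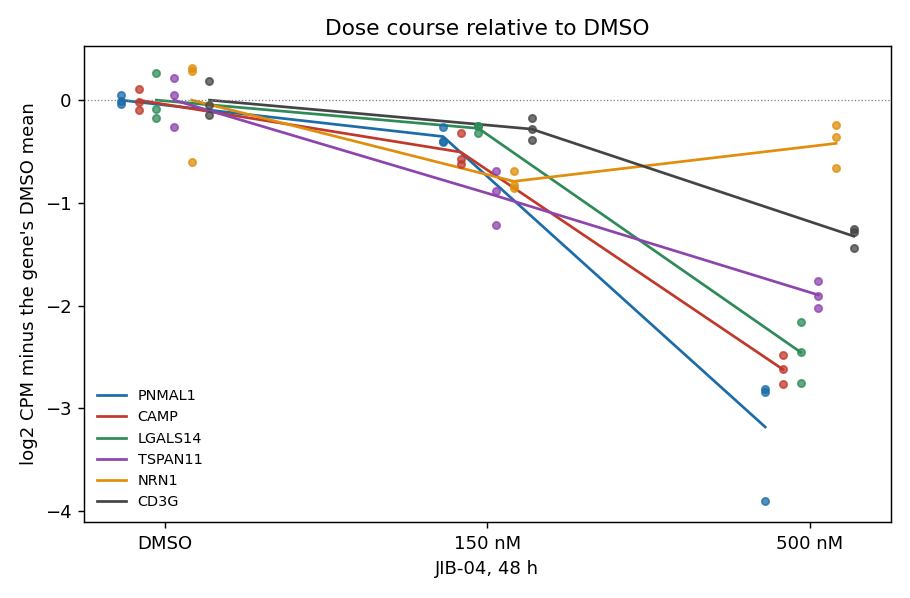
log2 CPM of each library minus the gene's own DMSO mean (y axis), by group (x axis); lines join the group means and points are libraries, shifted sideways by gene. PNMAL1, CAMP and LGALS14 drop mainly between 150 and 500 nM, TSPAN11 drops in even steps, and NRN1 turns back up.

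By their fitted values the members fell into 3 kinds of course, which were not tested against each other. In PNMAL1, LGALS14, CAMP and CD3G the fall at 150 nM was a small part of that at 500 nM on the log2 scale, at 10.98%, 11.8%, 18.9% and 21.2% (10.1% to 12.6%, 5.97% to 14.9%, 16.7% to 22.5% and 15.1% to 25.4% with each library left out in turn). For TSPAN11 the share was 48.2% (41.7% to 54.7%), and for NRN1 the fall at 150 nM exceeded that at 500 nM. The ranges do not carry the SEs of the 150 nM changes, which were -0.35 ± 0.20 for PNMAL1, -0.29 ± 0.17 for LGALS14, -0.50 ± 0.13 for CAMP and -0.28 ± 0.12 for CD3G. The shares are thus less certain than the ranges show, and their order was not tested. All 6 members had every 150 nM library below every DMSO library, as did 7.32% of the tested genes. At 500 nM this held for 5 of 6, against 29.0% of tested genes, and from 150 to 500 nM for 5 of 6, against 26.0%. NRN1 had every 500 nM library above every 150 nM library, as did 29.0% of tested genes. The full order of DMSO above 150 nM above 500 nM without overlap was shown by those 5 and by 3.96% of tested genes. NRN1's pattern, with every 150 nM library below all others, was shown by 1.15% of tested genes. Since the members were picked for low values in these groups, nothing follows from these counts about the members.

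How far the label of strongest falls held differed between members and contrasts. Among the 9813 protein-coding genes whose higher group averaged 5 CPM or more, PNMAL1, CAMP and LGALS14 ranked 1, 2 and 3 from the lowest change at 500 nM against DMSO, followed by the Fc receptor-like gene FCRL2 (-2.42). TSPAN11 ranked 15, between HIST1H2BL (-1.92) and HIST1H3H (-1.87), CD3G ranked 65 and NRN1 ranked 1055. The ranks depend on the 5 CPM level, which PNMAL1 passed narrowly, at 5.10 CPM in DMSO. Below that level CD2 (-3.58) had a lower fitted value than PNMAL1, ARHGEF38 (-2.68) than CAMP, and GAPT (-2.58) than LGALS14. They were at 0.770, 1.77 and 2.28 CPM in DMSO. The ranks come from the values that guided the choice, so they describe it and test nothing. At 150 nM TSPAN11 and NRN1 ranked 4 and 5 of 9537, just after the aldolase gene ALDOC (-1.03) and before WNT10A (-0.58). CAMP ranked 11 there, PNMAL1 34, LGALS14 71 and CD3G 84. From 150 to 500 nM LGALS14 and CAMP ranked 2 and 3 of 9791, TSPAN11 93, CD3G 80 and NRN1 8447, and PNMAL1, at 3.98 CPM in the higher group, was below the level needed to be ranked.

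**Figure D3:**
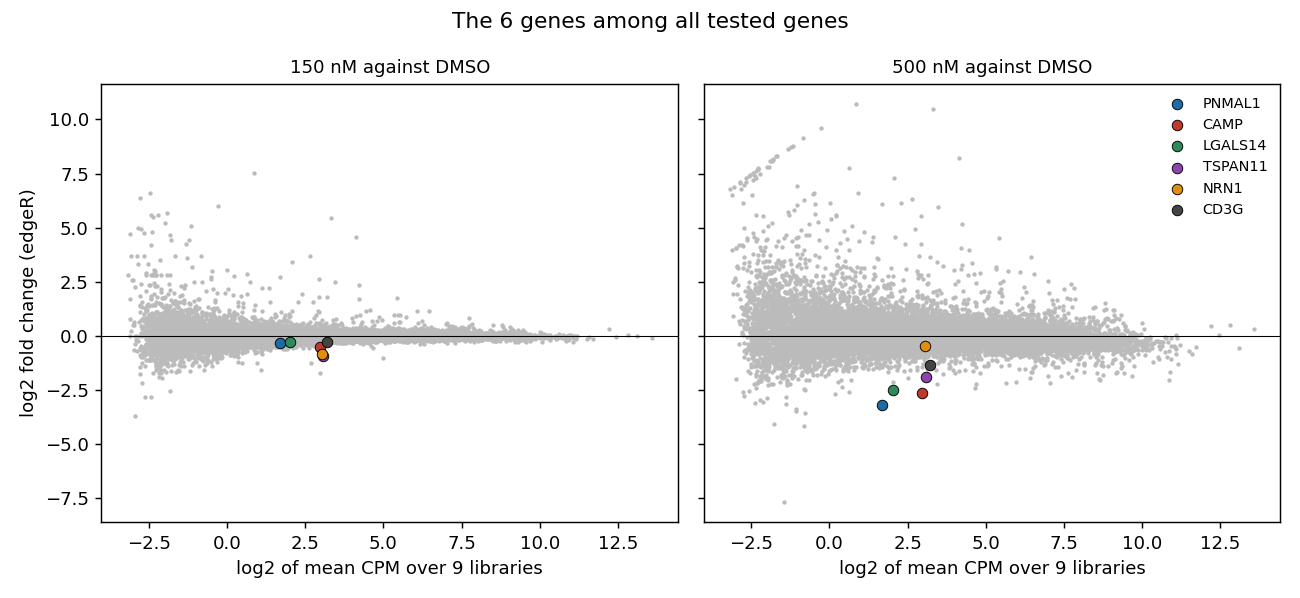
log2 fold change (y axis) against log2 mean CPM over the 9 libraries (x axis) for all 15089 tested genes (grey) and the 6 members (coloured), at 150 nM (left) and 500 nM (right) against DMSO. At 500 nM PNMAL1, CAMP and LGALS14 lie below the main cloud at their level; some genes with fewer counts have lower fitted values.

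The spread between libraries differed both between groups and between genes. For NRN1 the coefficient of variation was 31.9% in DMSO, against 4.99% from counting error alone, and 6.49% at 150 nM. For LGALS14 it was 17.1% in DMSO and 2.45% at 150 nM, where counting error alone gives 7.17%. PNMAL1 varied by 3.20% in DMSO and by 39.9% at 500 nM, where few counts remained and counting error alone gives 18.8%. TSPAN11 varied by 16.1%, 17.9% and 9.49% in DMSO, 150 nM and 500 nM, CAMP by 7.34%, 11.6% and 9.72%, and CD3G by 12.1%, 7.71% and 7.02%. The biological coefficient of variation estimated by edgeR over all 9 libraries was 0.149 for NRN1 against a trend of 0.103 for genes of its level, and 0.095 to 0.144 for the other members, with trends of 0.0997 to 0.151.

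The genes whose courses were most like those of the members, by the root-mean-square difference of log2 CPM over the 9 libraries after subtracting each gene's DMSO mean, were searched among 11117 protein-coding genes. FCRL2 was nearest to both LGALS14 (0.174) and CAMP (0.234), and these members were themselves near each other (0.280). The next to LGALS14 was the adaptor gene GAPT (0.223). PNMAL1 was nearest to ARHGEF38, a guanine nucleotide exchange factor gene (0.413), and then to CAMP (0.423). Close to CD3G was the metalloprotease gene ADAM19 (0.110). TSPAN11 was nearest to DYX1C1 (0.339) and the cytokine receptor gene IL20RB (0.355), and NRN1 to GNRHR (0.264) and RAB6C (0.268). The median distance of all candidates from a member was 0.598 to 1.87. The libraries are shared by all genes, so these distances describe likeness only.

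Relatives of the members, which took no part in their choice, were tested with edgeR's quasi-likelihood test over all 15089 genes, with Benjamini-Hochberg adjustment and a call at an adjusted p under 0.05. The lists of relatives were themselves chosen with earlier results of these data known. At 500 nM against DMSO 25.6% of tested genes were called lower and 26.3% higher, and at 150 nM 0.318% lower and 0.954% higher. The median log2 fold change over all tested genes was -0.003 at 150 nM and 0.012 at 500 nM. With scaling by total counts the latter was 0.15, so calls of small changes at 500 nM depend on the scaling.

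Genes of the T-cell receptor list, the relatives of CD3G, were called in both directions at 500 nM, as among all tested genes. Of 12 tested members of 22 listed, 4 fell and 3 rose, against 25.6% and 26.3% of all tested genes. The list's median log2 fold change was -0.02, and nothing is read from these counts about the list. CD3D, the delta chain that pairs in the same complex, fell from 5.72 ± 0.33 to 2.06 ± 0.10 CPM (SD, n = 3), a log2 fold change of -1.47 ± 0.17 (adjusted p = 4.28e-08). At 150 nM it was at 3.93 ± 0.48 CPM, with a change of -0.54 ± 0.17 that was not called (adjusted p = 0.136). CD247, the zeta chain, fell at 500 nM from 17.4 ± 1.4 to 10.98 ± 1.33 CPM (-0.67 ± 0.11, adjusted p = 6.91e-06). The epsilon chain gene CD3E was at 0.427 CPM in DMSO and 0.490 CPM at 500 nM (0.21 ± 0.47, adjusted p = 0.726). CD2, an adhesion receptor of T cells, fell from 0.770 ± 0.27 to 0.062 ± 0.016 CPM (-3.58 ± 0.57, adjusted p = 5.3e-06). Its counts were few, from 2 to 45 per library over all groups, so the size of its fall is uncertain.

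The kinase genes LCK (0.21 ± 0.05, adjusted p = 0.00039) and ZAP70 (0.77 ± 0.17, adjusted p = 0.000333), which act below the receptor, rose at 500 nM. None of the 12 was called at 150 nM (0 by edgeR, 0 by limma-voom, 0 by DESeq2), while for 2 the unadjusted p was under 0.05. From 150 to 500 nM 3 fell and 3 rose, against 22.8% of tested genes lower and 23.7% higher. Of 10 T-cell markers examined, CD3G not among them, 4 were at 0 in DMSO and CD3D and CD247 alone reached 1 CPM. CD7, TRAT1 and BCL11B had 0 counts in all 9 libraries. Their summed level was 23.5 to 26.4 CPM in DMSO and 13.4 to 16 CPM at 500 nM, beside the fall of CD3G; the part of any T cells in these values was not tested.

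Among the relatives of CAMP, the granule and antimicrobial genes mostly did not pass the filter on low counts. Of 23 listed only 3 were tested, with a median log2 fold change of -0.82 at 500 nM, and 1 was called, the gelatinase gene MMP9, which rose from 0.142 to 0.505 CPM (1.82 ± 0.66, adjusted p = 0.0214). That call rested on DMSO replicate 3 and 500 nM replicate 1: leaving out the former gave an adjusted p of 0.136 and the latter 0.101. At 150 nM, and from 150 to 500 nM, edgeR, DESeq2 and limma-voom called 0 of the 3, and 0 had an unadjusted p under 0.05.

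The list of vitamin D receptor and C/EBP factors holds known regulators of CAMP and their partners, with vitamin D enzymes and targets. Of 9 tested members of 14 listed, 6 rose at 500 nM and 0 fell, by edgeR, against 26.3% and 25.6% of all tested genes. CEBPA, among the 6, passed the filter on low counts through its 500 nM level (0.015, 0.016 and 0.374 CPM in DMSO, 150 nM and 500 nM). RXRB (adjusted p = 0.527), CYP27B1 (0.161) and SPI1 (0.755) were not called at 500 nM. The list's median was 0.93. VDR, the vitamin D receptor gene, was at 3.52, 2.27 and 2.04 CPM in DMSO and at 5.28, 4.35 and 5.36 CPM at 500 nM (0.93 ± 0.20, adjusted p = 0.000373), and at 150 nM it was not called (-0.15 ± 0.22, adjusted p = 0.881). CEBPB rose from 3.52 ± 0.36 CPM in DMSO to 7.71 ± 1.08 at 150 nM (1.14 ± 0.12, adjusted p = 2.98e-07) and to 54.8 ± 2.49 at 500 nM (3.97 ± 0.11, adjusted p = 2.62e-21). CEBPG rose at 150 nM (0.28 ± 0.06, adjusted p = 0.0157) and at 500 nM (1.20 ± 0.06, adjusted p = 1.59e-15). The call of CEBPG at 150 nM did not survive leaving out any of DMSO replicates 1 and 2 and 150 nM replicates 2 and 3 (adjusted p of 0.053 to 0.172), or a fit of the DMSO and 150 nM libraries alone (0.0647). CYP24A1, the classical vitamin D target, had 2 counts in all 9 libraries together, and CEBPE, the granulocyte factor that acts on CAMP, had 34.

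The PNMA and other Gag-derived genes are the relatives of PNMAL1. Of 9 tested genes of 24 listed, 5 rose at 500 nM and 1 fell, against 26.3% and 25.6% of all tested genes. The list's median was 0.32, and 1 of the 9 rose at 150 nM, against 0.954% of all tested genes. PNMA6A was at 1.74, 1.14 and 1.38 CPM in DMSO, at 2.78, 2.87 and 2.17 CPM at 150 nM and at 8.97, 7.43 and 6.95 CPM at 500 nM, opposite in direction to PNMAL1. Its log2 fold change was 2.43 ± 0.19 at 500 nM (adjusted p = 2.07e-11) and 0.86 ± 0.21 at 150 nM (adjusted p = 0.0262). The call at 150 nM did not hold when any of DMSO replicates 2 and 3 and 150 nM replicate 2 was left out (adjusted p of 0.0642 to 0.191), by limma-voom (0.205) or with the DMSO and 150 nM libraries fitted alone (0.13). PNMA6A has near-identical copies on the X chromosome, so its counts are uncertain. RGAG4 had 0 counts in DMSO and 21, 18 and 21 counts at 500 nM, at least 14.2-fold higher against a floor of 3 counts over the DMSO group (adjusted p = 0.000108). MOAP1, an adaptor of cell death, fell slightly (-0.21 ± 0.07, adjusted p = 0.0166), a call that ended when DMSO replicate 2 (adjusted p = 0.117) or 500 nM replicate 1 (0.0756) was left out, and with scaling by total counts (-0.07, adjusted p = 0.427). PNMAL2, the paralogue next to PNMAL1, had 10 counts in all 9 libraries together.

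The tetraspanins, the relatives of TSPAN11, were called in both directions, as among all tested genes. Of 22 tested of 32 listed, 7 rose and 5 fell at 500 nM, against 26.3% and 25.6% of all tested genes. The list's median was 0.24. CD82, a tetraspanin of lymphocytes, fell from 12.01 ± 1.53 to 4.12 ± 0.26 CPM (-1.55 ± 0.14, adjusted p = 2.94e-10), and CD37, a B-cell tetraspanin, fell from 32.8 ± 0.65 to 18.5 ± 1.83 CPM (-0.83 ± 0.09, adjusted p = 2.86e-08). TSPAN5 (1.72 ± 0.27, adjusted p = 5.2e-06) and TSPAN17 (0.64 ± 0.12, adjusted p = 3.51e-05), both regulators of the protease ADAM10, rose. At 150 nM 0 of 22 were called by any of edgeR, DESeq2 and limma-voom. An unadjusted p under 0.05 was found for 1 of them. From 150 to 500 nM 7 rose and 6 fell, against 23.7% and 22.8% of all tested genes.

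Few galectins and few neuronal relatives were expressed. Of 15 galectins 5 were tested, and 2 fell at 500 nM, against 25.6% of all tested genes. These were LGALSL (-0.33 ± 0.10, adjusted p = 0.00547) and LGALS1 (-0.64 ± 0.25, adjusted p = 0.0345). With scaling by total counts neither was called (adjusted p = 0.0994 and 0.0957), and that of LGALS1 also ended when any of DMSO replicates 1 and 3 and 500 nM replicates 1 and 3 was left out (adjusted p of 0.061 to 0.107). At 150 nM edgeR, DESeq2 and limma-voom called 0 of the 5, with 0 at an unadjusted p under 0.05. Of 17 neuritin, neurotrophin and activity-regulated neuronal genes 4 were tested. HOMER1, a synaptic scaffold gene, rose at 500 nM from 12.5 to 18.4 CPM (0.57 ± 0.10, adjusted p = 3.05e-05). NRN1L, the closest relative of NRN1, was at 0.371 CPM in DMSO, 0.274 at 150 nM and 0.336 at 500 nM, and was not called at either dose (adjusted p = 0.858 and 0.825). At 150 nM edgeR, DESeq2 and limma-voom called 0 of the 4, with 0 at an unadjusted p under 0.05.

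**Figure D4:**
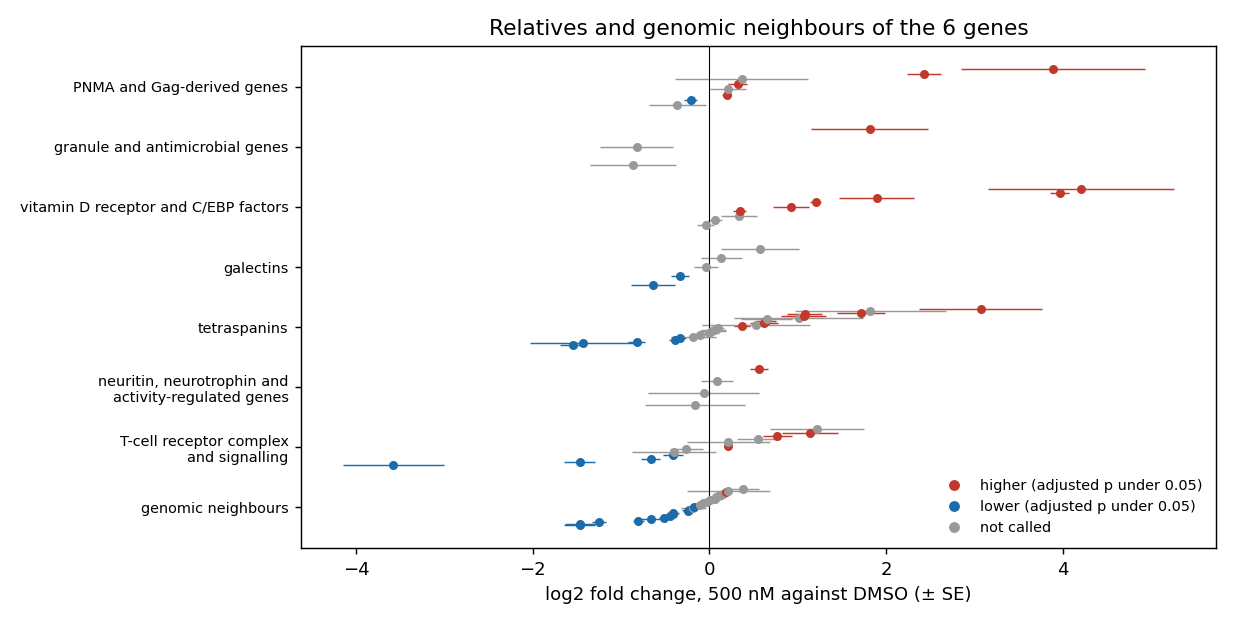
log2 fold change at 500 nM against DMSO with its SE (x axis) of each tested relative, by list, and of each tested genomic neighbour (y axis); red and blue mark calls at an adjusted p under 0.05. RGAG4 and TMTC1, with 0 counts in DMSO, are left out. T-cell receptor genes and tetraspanins are called on both sides, as among all tested genes (25.6% lower, 26.3% higher). Of the 9 tested genes of the vitamin D receptor and C/EBP list 6 are called higher, among them CEBPA, which passed the filter on low counts through its level at 500 nM.

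The genes beside the members on the chromosome were examined next, taking the 3 protein-coding genes on each side in RefSeq order. Of the 36 neighbours 25 were tested, and at 500 nM 12 fell and 2 rose, with a median of -0.18. Over all tested genes 25.6% were called lower and 26.3% higher, with a median of 0.012. At 150 nM the calls among the 25 were 0 by edgeR, 1 by limma-voom and 1 by DESeq2. An unadjusted p under 0.05 was found for 4. From 150 to 500 nM 12 fell and 3 rose, against 22.8% of tested genes lower and 23.7% higher. The neighbours lie around only 6 genes, and they were not tested as a set. CD3D, already given, and CD3E lie beside CD3G; on its other side UBE4A was not called at 500 nM (0.09 ± 0.06, adjusted p = 0.192, and 0.0164 with GC trends removed), ATP5L fell (-0.41 ± 0.06, adjusted p = 8.98e-07) and the histone methyltransferase gene KMT2A was not called (0.15 ± 0.07, adjusted p = 0.0583). With scaling by total counts UBE4A and KMT2A were called higher (adjusted p = 0.00121 and 0.00053), and KMT2A also by DESeq2 (0.049) and in the fit blocked by replicate number (0.0342), among other settings. Beside NRN1, at 500 nM, LY86, which encodes a partner of the Toll-like receptor homologue CD180, fell from 44.9 ± 2.74 to 18.9 ± 0.68 CPM (-1.25 ± 0.08, adjusted p = 2.07e-13), and the clotting factor gene F13A1 fell from 6.14 ± 0.47 to 2.21 ± 0.28 CPM (-1.47 ± 0.17, adjusted p = 2.97e-08). At 150 nM the change of LY86 was -0.30 ± 0.08 (adjusted p = 0.0538), and it was called in the fit blocked by replicate number (0.0202) and without 150 nM replicate 1 (0.0106). LY86 and F13A1 were thus lowest at 500 nM, whereas NRN1 was lowest at 150 nM. Of its other neighbours LYRM4 fell slightly at 500 nM (-0.23 ± 0.08, adjusted p = 0.014), a call that ended under scaling by total counts (0.348) and without DMSO replicate 2 (0.0503) or 500 nM replicate 1 (0.102). FARS2 (0.06 ± 0.09, adjusted p = 0.611) and RREB1 (-0.02 ± 0.09, adjusted p = 0.842) were not called.

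Beside CAMP the zinc-finger gene ZNF589 fell (-0.80 ± 0.06, adjusted p = 7.35e-12), as did DHX30 (-0.41 ± 0.06, adjusted p = 2.53e-06) and, less, the cell-cycle phosphatase gene CDC25A (-0.24 ± 0.06, adjusted p = 0.00166, and -0.10 with adjusted p = 0.168 under scaling by total counts), while MAP4 was not called (0.07 ± 0.06, adjusted p = 0.31, and 0.21 with adjusted p = 0.00382 under scaling by total counts). NME6 was not called either (-0.18 ± 0.14, adjusted p = 0.285), but was called lower without 500 nM replicate 2 (-0.40, adjusted p = 0.015). Beside PNMAL1 both tested neighbours fell, the calmodulin gene CALM3 (-0.52 ± 0.06, adjusted p = 8.9e-09) and the phosphatase gene PPP5C (-0.45 ± 0.06, adjusted p = 2.17e-07). Beside LGALS14 EID2 fell (-0.66 ± 0.12, adjusted p = 3.37e-05). The other tested neighbour of LGALS14, the kinase gene DYRK1B, was not called (0.38 ± 0.19, adjusted p = 0.0857), but was called higher under scaling by total counts (0.0202) and without DMSO replicate 1 (0.03). Beside TSPAN11 IPO8 fell (-0.18 ± 0.06, adjusted p = 0.0103, and -0.04 with adjusted p = 0.574 under scaling by total counts), DDX11 rose (0.19 ± 0.06, adjusted p = 0.00893, and adjusted p = 0.0744 without DMSO replicate 2), and CAPRIN2 (0.01 ± 0.07, adjusted p = 0.92), FAM60A (-0.08 ± 0.05, adjusted p = 0.24) and DENND5B (-0.10 ± 0.06, adjusted p = 0.165) were not called. TMTC1, a mannosyltransferase gene, had 0 counts in DMSO and 32, 14 and 37 at 500 nM, at least 19.7-fold higher against the same floor (adjusted p = 8.43e-05). It had 6, 0 and 0 counts at 150 nM, so it passed the filter on low counts only through the 500 nM libraries. TMTC1 is among the 2 neighbours called higher at 500 nM, and its call gives no support for a rise among the neighbours. At 500 nM CD3D had a larger fitted fall than CD3G beside it, and LY86 and F13A1 had larger ones than NRN1. No other neighbour named here had a fitted fall as large as that of the member beside it. The members were chosen for strong falls in these same libraries, so nothing follows from smaller falls beside them. These differences between genes were not tested.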

How the data were processed

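RNA-seq of ribosomal RNA-depleted total RNA from 9 OCI-Ly1 libraries, 3 per group, was used. The authors deposited a table of whole-number read counts, with a row for each gene symbol and a column for each library, per the file headers. The submitters' processing notes name the builds hg19 and mm10 and, without their roles, featureCounts 1.4.6, Subread, TopHat2 2.0.14 and Bowtie2 2.2.6. Annotation and strand: not given in the sources used here.

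The filter on low counts was filterByExpr, at a minimum count of 10 and a minimum total of 15. Counts were scaled by TMM and fitted with edgeR 4.0.16 in R 4.3.3, as a robust quasi-likelihood model of all 9 libraries. Benjamini-Hochberg adjustment covered all 15089 genes tested. An SE is the change without a prior count over the root of its F value. Log2 fold changes are shrunk slightly by a prior count. Log2 CPM used a prior count of 2. Gene lengths and transcript GC content came from GENCODE 29, and symbols, neighbours and promoters from RefSeq (GRCh38.p14), with which 24169 of 25370 symbols matched; promoters were found for 5 of 6 members.

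The members, the lists, the tests and the alternatives were chosen with earlier results of these data known. Genes named are the members, 10 fixed relatives, up to 2 genes per list and direction with the smallest adjusted p at 500 nM, tested neighbours, genes next in rank, and 2 genes of most similar course per member, of which 1 is not reported here. Alternatives were DESeq2 1.42.0, limma-voom (limma 3.58.1), other scalings and filters, fewer libraries or genes, the replicate number as a block and offsets for GC trends. The fit was tested on simulated counts. Within groups, no pair of libraries was alike within sampling noise (chi-square per degree of freedom 6.36 to 15.3), and all 9 were kept. Counting errors cover counting only, since no molecular identifiers are described.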

Additional observations from a re-analysis of the deposited data

How the results depend on the processing

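Over the 19 alternatives no member's log2 fold change changed sign in any of the 3 comparisons. Of these, 2 moved by more than the spread between replicates, both with scaling by total counts, which puts the median of all tested genes at 500 nM against DMSO at 0.15: CAMP to -2.51 at 500 nM against DMSO and CD3G to -0.93 from 150 to 500 nM. The counts of relatives called were 27 to 38 at 500 nM against DMSO (35 in the main design) and 21 to 31 from 150 to 500 nM (29), and those of neighbours 12 to 16 in both comparisons (14 and 15). At 150 nM 3 relatives were called, 1 in the fit of the 6 libraries compared, and 1 to 3 with each library left out, with 1 without DMSO replicate 2 or 150 nM replicate 2. The count of neighbours at 150 nM, 0 in the main design, was 1, LY86, without a filter, with a filter of 1 CPM in 3 libraries, with GC trends removed, by DESeq2 and by limma-voom, and 0 to 1 with each library left out, with 1 without 150 nM replicate 1. With the replicate number as a block it was also 1, and the other counts were 3, 36 and 30 for relatives and 15 and 15 for neighbours. Of 9 pairs of same-numbered libraries 1 had deviations that correlated above 0.1 (range -0.052 to 0.104, other pairs -0.083 to 0.035), so the numbers were not taken to pair the libraries. Depth limits PNMAL1 at 500 nM most, with 18 to 36 counts per library.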
